A study of Mus musculus with 3 samples.

Results

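The blood-brain barrier genes described here are 10 of the 31053 genes in a single-cell RNA sequencing (scRNA-seq) matrix of mouse brain. They were chosen by name and not by a filter on their values, but with earlier results of these data known. The 10 are Cldn5, Ocln and Tjp1 of the tight junction, Cdh5 and Pecam1 of endothelial cell contacts, the carriers Mfsd2a, Slco1a4 and Slc2a1, and the efflux pumps Abcb1a and Abcg2. Brain cells came from 3 groups of mice aged 10 weeks, whose strain the labels spell C56BL6: control, Ischemic Stroke (IS) and Hemorrhagic Stroke (HS), with 8 mice pooled per group and 1 library per group. The study's methods give occlusion of the middle cerebral artery for IS and collagenase injected into the striatum for HS. The deposited matrix gives, for each gene and cell barcode, how many RNA molecules were captured, told apart by unique molecular identifiers (UMIs). The barcodes carry a library suffix from 1 to 3 that the sources used here do not pair with a condition. No level is therefore given by condition, no test between conditions was run, and every 95% interval covers counting error only, because cells of 1 library are not replicates.

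The blood-brain barrier is formed by the endothelial cells that line brain vessels. Tight junctions seal the cleft between neighbouring cells, few vesicles cross the cytoplasm, and nutrients enter on dedicated carriers while efflux pumps return drugs and lipophilic compounds to the blood. Pericytes and astrocyte endfeet surround the endothelium, and Wnt ligands that reach endothelial Frizzled receptors maintain the barrier state.

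Of 35968 barcodes, 31982 had at least 1000 UMIs and at most 30% mitochondrial counts and were kept as cells, with a median of 5801 to 6389 UMIs per cell in the 3 libraries. A cell was called endothelial when 3 or more of the 5 markers Flt1, Egfl7, Ly6c1, Itm2a and Kdr had a UMI. This rule found 1542 cells, 4.82% of those kept (95% interval 4.59 to 5.06%), with a median of 7083.5 UMIs. Of these, 5 came from suffix 1, 27 from suffix 2 and 1510 from suffix 3, which are 0.0557%, 0.196% and 16.3% of the cells kept in each library. The library of suffix 3 thus stood apart and held 97.9% of the endothelial cells, so every result below rests on it, and the counts of genes past a threshold are also given without it. The libraries shared 110 barcode sequences, 17 of them of endothelial cells, and none was endothelial in more than 1 library. Of the 1542 cells, 850 (55.1%) also carried 3 or more markers of another class, chiefly oligodendrocyte (577 cells) and pericyte (332 cells), and 692 carried those of no other class. No doublet caller was run, and the level in the 692 cells is given as a second value. Genes that the rule did not use matched the name: Ptprb, Eng, Emcn, Tek and Tie1, all known from endothelium, had a UMI in 54.0% to 87.6% of the endothelial cells and in 0.151% to 7.77% of all others, and Erg, an endothelial transcription factor, in 12.1% against 0.0197%.

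Upstream sequence was available from RefSeq (GRCm38.p6) for 8 of the 10 genes, in 11 windows of 250 bases that end just before a transcript's start. Cdh5 and Pecam1 had no entry. The 4 windows shown lie upstream of the annotated gene and stand for both junction proteins and carriers. Capitals mark the core letters GGAA or, on the other strand, TTCC, that the ETS family binds, to which the endothelial regulator Erg belongs.

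Cldn5 (chr16:18776597-18776846, plus strand): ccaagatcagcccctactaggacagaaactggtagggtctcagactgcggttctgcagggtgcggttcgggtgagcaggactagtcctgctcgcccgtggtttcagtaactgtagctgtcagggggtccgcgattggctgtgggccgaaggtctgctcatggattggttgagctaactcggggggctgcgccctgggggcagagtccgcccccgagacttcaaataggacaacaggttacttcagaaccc

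Ocln (chr13:100552719-100552968, minus strand): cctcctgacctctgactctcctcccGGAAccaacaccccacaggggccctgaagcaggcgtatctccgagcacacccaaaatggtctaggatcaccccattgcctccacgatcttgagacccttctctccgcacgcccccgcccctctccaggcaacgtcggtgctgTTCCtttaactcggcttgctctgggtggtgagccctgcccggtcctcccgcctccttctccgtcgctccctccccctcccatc

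Mfsd2a (chr4:122961189-122961438, minus strand): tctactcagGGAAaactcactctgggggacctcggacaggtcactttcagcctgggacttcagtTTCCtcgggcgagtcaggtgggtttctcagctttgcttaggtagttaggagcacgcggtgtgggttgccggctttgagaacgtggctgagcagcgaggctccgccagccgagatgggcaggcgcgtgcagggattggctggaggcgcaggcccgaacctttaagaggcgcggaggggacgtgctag

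Slco1a4 (chr6:141856221-141856470, minus strand): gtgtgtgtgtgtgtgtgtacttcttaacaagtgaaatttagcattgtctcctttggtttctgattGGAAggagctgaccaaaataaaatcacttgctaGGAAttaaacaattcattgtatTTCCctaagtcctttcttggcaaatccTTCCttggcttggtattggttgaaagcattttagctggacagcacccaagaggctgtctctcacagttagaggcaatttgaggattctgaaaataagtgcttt

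The Cldn5 window held none of these cores, the Ocln and Mfsd2a windows held 2 each and the Slco1a4 window held 4. Of the 11 windows, 9 held at least 1 core, beside 93.4% of 32851 mouse windows of the same length. The windows differed more in CG dinucleotides, of which Mfsd2a had 17, Ocln 14 and Cldn5 12, while Slco1a4 had 0, beside a median of 6 over all windows. The SOX core ACAAT, searched on both strands, occurred in 2 of the 11 windows (27.7% of all windows) and the FOX core TGTTTAC in 1, that of Abcb1a (3.17% of all windows). That window (chr5:8566841-8567090) lies far upstream of the annotated Abcb1a gene, which starts at chr5:8660077. A match is only a run of letters, and its use in these cells was not tested.

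All 10 genes were higher in endothelial cells than in all other cells kept. At a threshold of 2-fold in scaled counts (CPM, the summed UMIs of a gene per 1000000 UMIs of the same cells), 10 of 10 were higher, beside a background of 18.5% of the 9273 genes with at least 10 CPM in either set. Their median fold was 95.3, beside 1.08 over all genes tested, and it ran from 5.03 for Tjp1 to 638 for Cldn5. The count stayed at 10 without suffix 3, in 32 cells, but the share of all genes past 2-fold in that small set is not given. UMIs were counted at the 3′ end and not divided by gene length, so levels are compared for a gene across cells and not between genes.

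Cldn5 (ENSMUSG00000041378, GRCm38 chr16:18776847-18778262, plus strand), whose claudin strands seal the paracellular cleft of brain vessels, had 4348 CPM in endothelial cells (95% interval 4316 to 4380) and 6.81 CPM in all others. It had the 4th highest fold of all 9273 genes. A Cldn5 UMI was found in 96.8% of endothelial cells (95.7 to 97.6%), and in 99.6% of the 692 with no other markers, where its level was 5782 CPM. At the edge of the rule, 69.1% of the 139 cells with exactly 3 endothelial markers had a Cldn5 UMI, against 18.7% of the 566 cells with 2 markers, which were left out. Within single endothelial cells the level ran from 13.9 UMIs per 10000 at the 10th percentile to 46.1 at the median and 82.7 at the 90th percentile. The few endothelial cells of suffix 1 and suffix 2 had 1846 CPM (1485 to 2269) and 2810 CPM (2646 to 2982), both under the 4394 CPM of suffix 3. Among those with no other markers the order was not kept: 2 cells of suffix 1 had 5504 CPM, 14 cells of suffix 2 had 6760 CPM (6150 to 7414) and 676 cells of suffix 3 had 5769 CPM (5700.4 to 5837).

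Ocln (ENSMUSG00000021638, chr13:100496507-100552718, minus strand), a tight junction protein with 4 membrane spans, had 147 CPM in endothelial cells (141 to 153), 201 CPM in those with no other markers, and was found in 61.0% of them. The choroid plexus, whose epithelium forms the barrier to the cerebrospinal fluid, came next: its cells had 23.6 CPM (18.5 to 29.7), with a UMI in 28.0% of 200 deep cells (median 13238.5 UMIs). No other class passed 5.58 CPM, and T cells (median 4681 UMIs), which should lack it, had a UMI in 0.196%. Ocln in choroid plexus came from suffix 1 (20.9 CPM) and suffix 2 (26.8 CPM), the libraries with few endothelial cells.

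Tjp1 (ENSMUSG00000030516, chr7:65296165-65527781, minus strand), which encodes the scaffold ZO-1 and also serves epithelial and glial contacts, had the lowest fold over other cells of the 10 (5.03). Its 244 CPM in endothelial cells (236 to 251), and 264 CPM in those with no other markers, were not separated from the 190 CPM of 76 pericytes, whose interval ran from 139 to 254. Astrocytes had 83.1 CPM, oligodendrocytes 82.3 CPM and oligodendrocyte precursors 70.9 CPM, and T cells only 2.29 CPM. In oligodendrocytes the level was 86.7, 95.7 and 68.2 CPM in suffix 1, 2 and 3, lowest in the library that held the endothelial cells, whereas microglia had 40.6, 28.0 and 75.3 CPM, highest in that library.

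Cdh5 (ENSMUSG00000031871, chr8:104101625-104144511, plus strand), the VE-cadherin of endothelial adherens junctions, was nearly absent outside endothelial cells, at 0.671 CPM. It had 334 CPM in endothelial cells (325 to 343) and 402 CPM in those with no other markers, and the next class, border macrophages, had 2.07 CPM from 1 UMI. Pecam1 (ENSMUSG00000020717, chr11:106654217-106750628, minus strand), an adhesion molecule of endothelium that leukocytes and platelets also carry, had 462 CPM in endothelial cells (451 to 472) and 583 CPM in those with no other markers. Among the other classes it was highest in NK cells at 34.5 CPM (26.2 to 44.6), with a UMI in 17.4% of 258 cells, and in T cells at 14.6 CPM (12.5 to 17.1). Both immune levels were seen in suffix 1 (30.6 and 14.6 CPM) and in suffix 2 (49.1 and 14.7 CPM).

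Mfsd2a (ENSMUSG00000028655, chr4:122946850-122961188, minus strand), the carrier that takes lysophosphatidylcholine with docosahexaenoic acid into the brain, was the single gene of the 10 not highest in endothelial cells. Astrocytes had 211 CPM (181 to 245), endothelial cells 130 CPM (124 to 136) and oligodendrocyte precursors 119 CPM (106 to 133), and the last pair had overlapping intervals. The share of cells with a UMI was 40.8% of 223 astrocytes at a median of 2813 UMIs and 54.5% of the deeper endothelial cells. After each cell was thinned to 1000 UMIs these shares were 17.5% and 14.4%, and the share was 16.6% in the 692 endothelial cells with no other markers. The order of the levels was the same in the 692 endothelial cells with no other markers, at 168 CPM (157 to 180). By library, astrocytes had 141, 123 and 277 CPM in suffix 1, 2 and 3, and endothelial cells 123, 43.7 and 132 CPM. The intervals were separate in suffix 2 (77.9 to 184 against 25.5 to 70.0 CPM) and in suffix 3 (231 to 330 against 127 to 138 CPM), and overlapped in suffix 1, which had only 5 endothelial cells. Among endothelial cells with no other markers the separation was kept in suffix 3, at 169 CPM (158 to 181). It was not kept in suffix 2, where 14 such cells had 120 CPM (51.9 to 237). Oligodendrocyte precursors had 113, 82.9 and 308 CPM, so that within suffix 3 they (236 to 396 CPM) were also above endothelial cells and overlapped astrocytes, and the near tie of the pooled values is not found there. The same 223 astrocytes held 175 Mfsd2a UMIs and 17 Cldn5 UMIs.

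Slco1a4 (ENSMUSG00000030237, chr6:141805440-141856199, minus strand), an organic anion transporter of brain endothelium, had 796 CPM in endothelial cells (782 to 810), with a UMI in 91.1%, and 1036 CPM in those with no other markers. Pericytes had 54.9 CPM and choroid plexus cells 26.9 CPM (21.4 to 33.3), the latter with a UMI in 30.5% of cells and with like levels in suffix 1 (24.6 CPM) and suffix 2 (28.9 CPM). Slc2a1 (ENSMUSG00000028645, chr4:119108711-119137983, plus strand), the GLUT1 carrier that brings glucose across the barrier, had 1971 CPM in endothelial cells (1949 to 1993) and 52.6 CPM in all others. Lower levels were spread over many classes, from 127 CPM in neutrophils (107 to 149) and 120.5 CPM in astrocytes (98.0 to 147), whose intervals overlapped, to 78.5 CPM in oligodendrocytes and 17.5 CPM in T cells. Its endothelial level was 328 CPM in suffix 1, 494 CPM in suffix 2 and 2013 CPM in suffix 3, and it was 2488 CPM in the cells with no other markers.

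Abcb1a (ENSMUSG00000040584, chr5:8660077-8748575, plus strand), which encodes P-glycoprotein, had 561 CPM in endothelial cells (549 to 573), 696 CPM in those with no other markers, and was found in 87.2% of them. T cells came next with 16.6 CPM (14.3 to 19.3) and a UMI in 7.99% of 2039 cells, and NK cells had 8.34 CPM. The T-cell level was 17.4 CPM in suffix 1 and 15.8 CPM in suffix 2. Abcg2 (ENSMUSG00000029802, chr6:58584523-58695676, plus strand), an efflux pump for drugs and porphyrins, had 488 CPM in endothelial cells (477 to 499) and 632 CPM in those with no other markers. Oligodendrocyte precursors had 44.6 CPM (36.8 to 53.6), with a UMI in 24.5% of 383 cells, and microglia 16.7 CPM (15.8 to 17.6), with a UMI in 13.4% of 8735 cells. In T cells, Abcg2 was found in 1.32%.

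**Figure D1:**
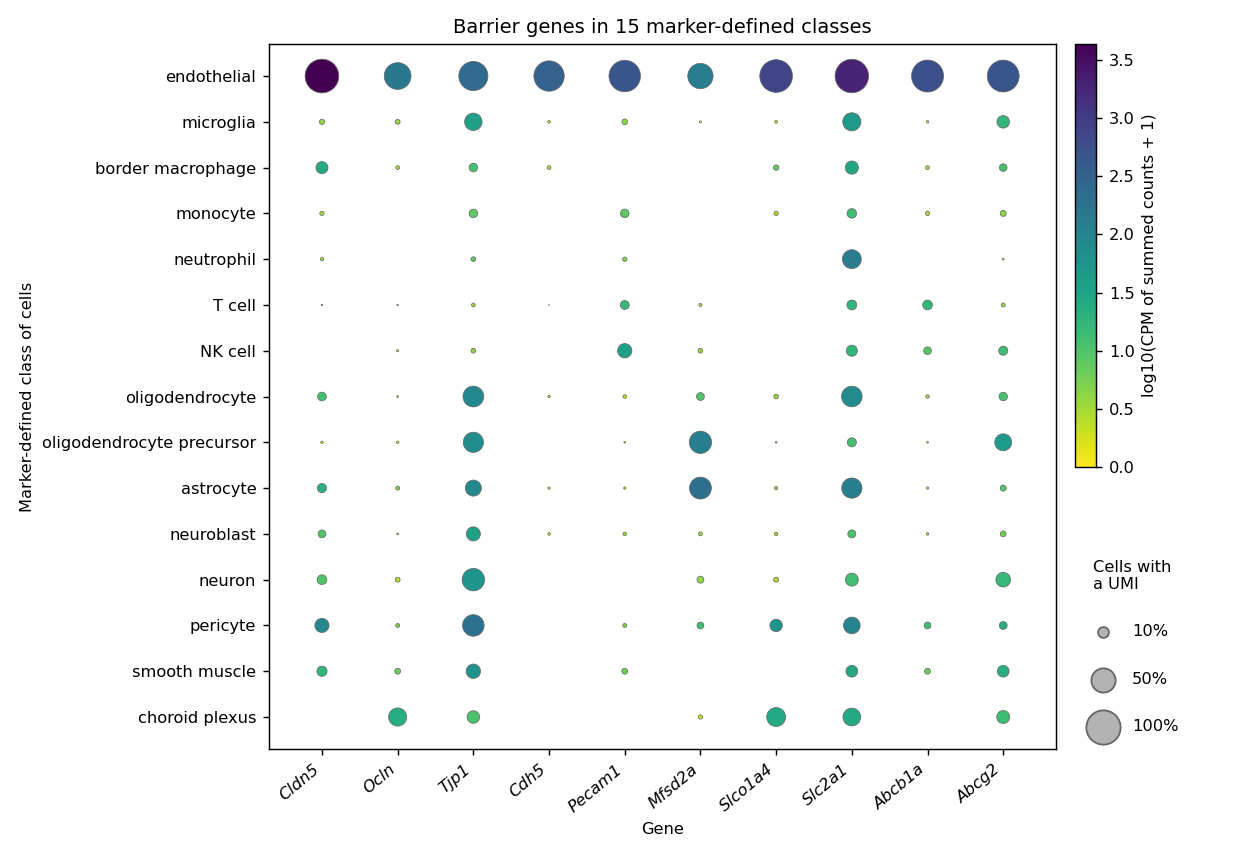
Level of the 10 barrier genes (columns) in 15 marker-defined classes of cells (rows), with log10 of CPM plus 1 as dot colour and the percentage of cells with a UMI as dot area. The endothelial row is darkest for 9 of 10 genes, the astrocyte dot of Mfsd2a is darker than the endothelial one (211 against 130 CPM), and Tjp1, Slc2a1 and Abcg2 have UMIs in every class.

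Over all endothelial cells, the level of each of the 10 genes was higher in suffix 3 than in suffix 1 and suffix 2, which had only 5 and 27 such cells. For Ocln the 3 values were 61.5, 66.9 and 149 CPM, for Cdh5 82.1, 201 and 338 CPM, and for Pecam1 267, 257 and 467 CPM. For Slco1a4 they were 226, 499 and 805 CPM, for Abcb1a 164, 360.0 and 567 CPM, and for Abcg2 123, 267 and 495 CPM. Tjp1 had 123, 149 and 246 CPM, with an interval in suffix 1 of 45.2 to 268 CPM. For Ocln, Tjp1 and Mfsd2a the interval of suffix 1 held the value of suffix 3. Among cells with no other markers most of these gaps between suffix 2 and suffix 3 were gone or turned: Tjp1 had 315 and 263 CPM, Cdh5 376 and 402 CPM, Pecam1 586 and 582 CPM, Slco1a4 1262 and 1034 CPM, Abcb1a 781 and 696 CPM, and Abcg2 751 and 630 CPM, with overlapping intervals in each. Slc2a1 kept a separate, lower level in suffix 2, at 841 CPM (635 to 1092) against 2515 CPM (2470.1 to 2561). Library and condition cannot be told apart in these data. Without suffix 3, the fold of endothelial over other cells was 8195 for Cldn5, 941 or less for the rest, and lowest for Slc2a1 (10.9) and Tjp1 (3.39).

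Transcripts of the barrier genes were also found outside endothelial cells. For Cldn5, Cdh5 and Slco1a4 most of these UMIs were in suffix 3, and for the other 7 genes they were spread over the 3 libraries. In suffix 3 a Cldn5 UMI was present in 16.7% of the non-endothelial cells at 28.7 CPM (27.3 to 30.2), against 0.201% and 0.189% in suffix 1 and 2 at 0.392 and 0.287 CPM. By class in suffix 3, the level was 27.2 CPM in oligodendrocytes (16.0% of cells, median 6203 UMIs), 25.7 CPM in microglia (14.9%, 6424 UMIs) and 29.4 CPM in neuroblasts (18.2%, 5207 UMIs). These 3 classes, which should lack the gene, are used as a reference for that library, and the source of their Cldn5 UMIs was not tested. It was 5.05 CPM (0.128 to 28.2) in 44 oligodendrocyte precursors, 2.27% of which had a UMI. Pericytes of suffix 3 had 90.1 CPM (55.8 to 138), above the levels of those 3 classes. Their share with a Cldn5 UMI, 17.6% of 74 cells, was within the range of those classes. The 74 pericytes held 21 Cldn5 UMIs, beside 687 in 3809 oligodendrocytes, 214 in 1278 microglia and 95 in 489 neuroblasts. Pericytes were shallower (median 3249.5 UMIs), and the part of depth in their CPM was not tested. Whether the Cldn5 UMIs of pericytes are their own transcripts was not tested. Within that library the other genes were therefore set against Cldn5. Endothelial cells had 7.7 Cdh5 UMIs per 100 Cldn5 UMIs (7.5 to 7.9) and oligodendrocytes 7.4 (5.5 to 9.9). Near ratios were seen for Ocln (3.4 and 3.3), Pecam1 (10.6 and 12.4) and Abcb1a (12.9 and 13.4), whose oligodendrocyte intervals contained the endothelial value. Slco1a4 was somewhat above its endothelial ratio in oligodendrocytes, at 25.8 (21.7 to 30.4) against 18.3. Tjp1 (250.5 against 5.6), Slc2a1 (385 against 45.8), Mfsd2a (48.0 against 3.0) and Abcg2 (51.7 against 11.3) were far above it. In microglia all 9 genes were above it, including Pecam1 at 44.4 (34.5 to 56.8), Ocln at 12.6 (8.1 to 18.9), Cdh5 at 13.1 (8.5 to 19.5), Abcb1a at 20.1 (14.1 to 28.0) and Slco1a4 at 27.1 (19.9 to 36.4), with intervals that excluded the endothelial value.

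**Figure D2:**
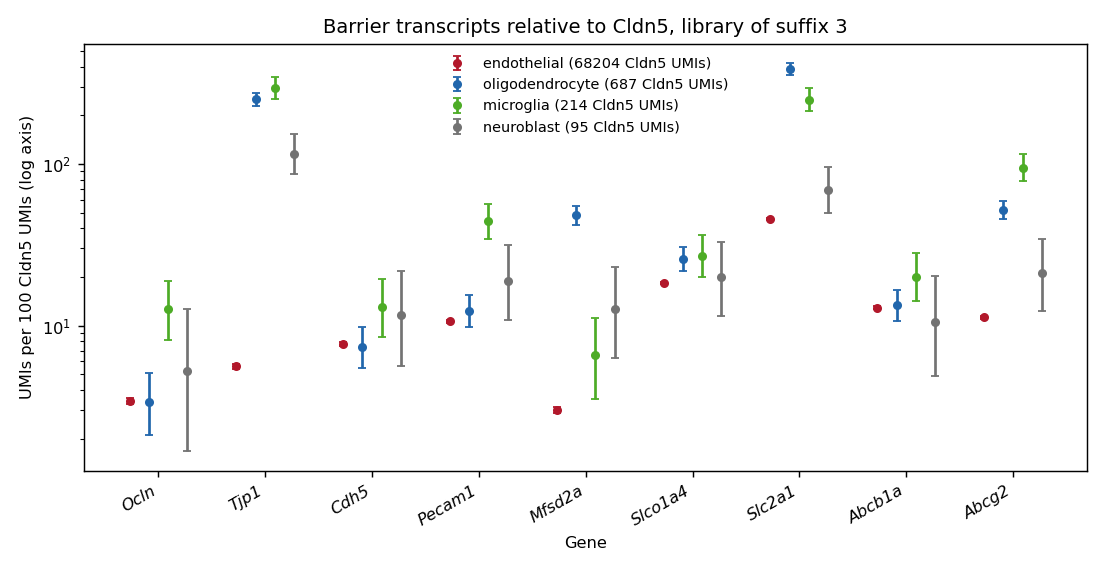
UMIs of 9 barrier genes per 100 Cldn5 UMIs (log axis) in 4 classes of the library of suffix 3, with exact 95% counting intervals. For Ocln, Cdh5, Pecam1 and Abcb1a the oligodendrocyte points lie on the endothelial ones, and for Tjp1, Mfsd2a, Slc2a1 and Abcg2 they lie well above.

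The genes occurred together in single cells. An endothelial cell had a UMI of a median of 9 of the 10 genes, 71.9% had 8 or more and 29.9% had all 10. At an equal depth of 1000 UMIs the median was 4 genes, and 83.2% of endothelial cells had 3 or more. In each of the 14 other classes at most 2.63% of cells did, the highest share being that of pericytes. Among the 692 cells with no other markers, 93.2% had 3 or more genes at this depth, against 75.1% of the 850 that carried markers of another class.

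**Figure D3:**
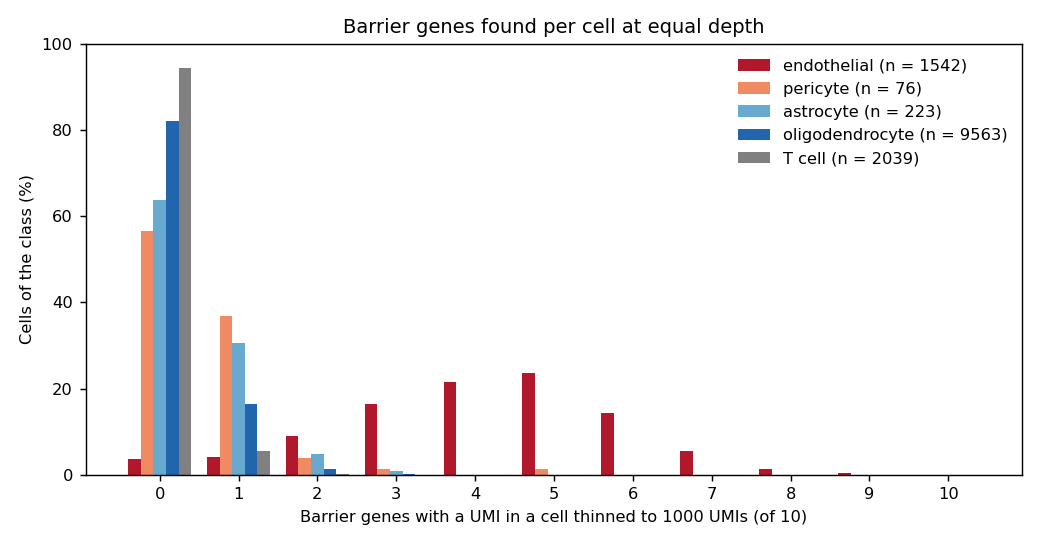
Percentage of cells (vertical axis) by the number of the 10 barrier genes with a UMI after thinning to 1000 UMIs (horizontal axis), in endothelial cells and 4 other classes. Endothelial cells centre on 4 to 5 genes, and 94.4% of T cells and 82.2% of oligodendrocytes have none.

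Genes whose levels over the 15 classes ran most like those of each barrier gene were found by Pearson's r of log2(CPM + 10) over 11682 genes, as a description across classes that share libraries. Where a gene was near absent outside endothelial cells, as Cdh5 was, r rests largely on that single class. Cldn5 ran closest with Ly6c1 (r = 0.987), itself a marker of the rule, and with Srarp (0.982). Cdh5 ran with Gm32688 and with Flt4, a receptor for lymphatic growth factors (both 0.998), Pecam1 with the adhesion molecule Icam2 (0.978) and Slc52a3 (0.961), and Abcb1a with Slc52a3, a riboflavin transporter (0.969), and Slc35f2 (0.964). Ocln ran with Rassf9 (0.981) and Slc16a4 (0.976), Slco1a4 with Mecom (0.981) and Sema3c (0.976), and Abcg2 with Clec14a (0.940) and Bcl6b (0.939). Mfsd2a ran with Ddah1 (0.952) and Plcb1 (0.942), Tjp1 with Apbb2 (0.931) and Alkbh5 (0.914), and Slc2a1 with Ly6c1 (0.876) and Tmem252 (0.875).

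Arterial cells, those with a UMI of 2 or more of Gkn3, Bmx, Sema3g, Vegfc, Hey1 and Efnb2, were 352 of the 1542. At least 2 of the vein markers Vwf, Nr2f2, Vcam1, Lcn2 and Ackr1 were found in 43.8% of them and in 33.1% of the other 1190. These shares are not at equal depth. By level the 5 vein markers summed to 2129 CPM in arterial and 2797 CPM in other cells (0 of 5 higher). Arterial genes that the rule did not use were higher in arterial cells: Mgp, a matrix protein of arterial walls, had 1348 against 196 CPM, the gap junction gene Gja4 64.0 against 15.6 CPM, and the Notch ligand Dll4 149.9 against 77.6 CPM. The rule picks deeper cells, with a median of 11267 UMIs against 6383. Markers of wall cells moved with it: the 5 smooth muscle markers summed to 791 CPM in arterial and 162 CPM in other cells (5 of 5 higher), the 5 pericyte markers to 2920 and 1835 CPM (4 of 5 higher), and none was at 0. Their part in the ratios below was not tested, and ratios are also given without cells that carried another class's markers.

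None of the 10 barrier genes passed 1.5-fold in arterial over other endothelial cells in either direction. The background was 6.11% of 6397 genes with at least 20 CPM called higher and 5.19% called lower, and the median ratio was 1.05 for the 10 genes and 1.03 for all genes. Cdh5 was the furthest above 1, at 418 against 294 CPM, a ratio of 1.42 (1.35 to 1.503), and 1.38 among cells with no other markers. It passed the threshold in 3 alternatives, at 1.53 with 3 or more arterial markers required, at 1.62 with vein-marker cells left out of the comparison set and at 2.15 (1.32 to 3.43) without suffix 3. Pecam1 had a ratio of 1.13 (1.07 to 1.18), and 1.04 (0.956 to 1.13) among cells with no other markers.

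The tight junction genes had ratios from 0.913 to 1.06 over all endothelial cells. Cldn5 had 4083 CPM in arterial and 4473 CPM in other endothelial cells, a ratio of 0.913 (0.898 to 0.928), and 0.826 among cells with no other markers. With vein-marker cells left out of the comparison set only, it was 1.01 (0.992 to 1.03). With them left out of both sides it was 1.03 (1.001 to 1.05). Ocln had a ratio of 1.04 (0.950 to 1.13) and Tjp1 of 1.06 (0.992 to 1.13), both with intervals that included 1. With vein-marker cells left out of the comparison set only, these were 1.21 (1.09 to 1.34) and 1.26 (1.16 to 1.36), above 1. With them left out of both sides these ratios were 1.23 (1.06 to 1.42) and 1.07 (0.955 to 1.21), and the Tjp1 interval included 1.

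Carriers and pumps lay on both sides of 1. Slc2a1 had 2147 against 1888 CPM, a ratio of 1.14 (1.11 to 1.16), and Mfsd2a 142 against 125 CPM, also 1.14 (1.04 to 1.246). Next, vein-marker cells were left out of the comparison set but kept among arterial cells. Slc2a1 then had 1.43 (1.39 to 1.47) and Mfsd2a 0.954 (0.861 to 1.06). With these cells left out of both sides, both genes had 1.35 (1.29 to 1.40 for Slc2a1, 1.19 to 1.53 for Mfsd2a). At 1000 UMIs per cell Mfsd2a had 0.971 (0.712 to 1.31), so that its direction depended on the setting. Abcb1a had 0.990 (0.947 to 1.04). Slco1a4 and Abcg2 lay below 1, at 0.861 (0.829 to 0.895) and 0.839 (0.798 to 0.881), and lower among cells with no other markers, at 0.798 and 0.733. With vein-marker cells left out of both sides, Slco1a4 had 1.01 (0.945 to 1.07) and Abcg2 0.931 (0.860 to 1.01), and both intervals included 1. At 1000 UMIs per cell the Abcg2 ratio was 0.938 (0.789 to 1.11). Without suffix 3, only 8 arterial and 24 other cells remained, and 9 of 10 genes passed 1.5-fold, 8 of them higher in arterial cells. The share of all genes past that fold in these small sets is not given. Of the other lists described below, 46 genes passed there against 12 over all endothelial cells, so the count is not read as particular to the 10. Cldn5 turned from 0.913 to 1.84 (1.63 to 2.08), and Tjp1 had 2.90 (1.70 to 4.89), Pecam1 2.47 (1.65 to 3.65) and Abcb1a 2.20 (1.55 to 3.11). Ocln was lower, at 0.596 (0.151 to 1.73).

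**Figure D4:**
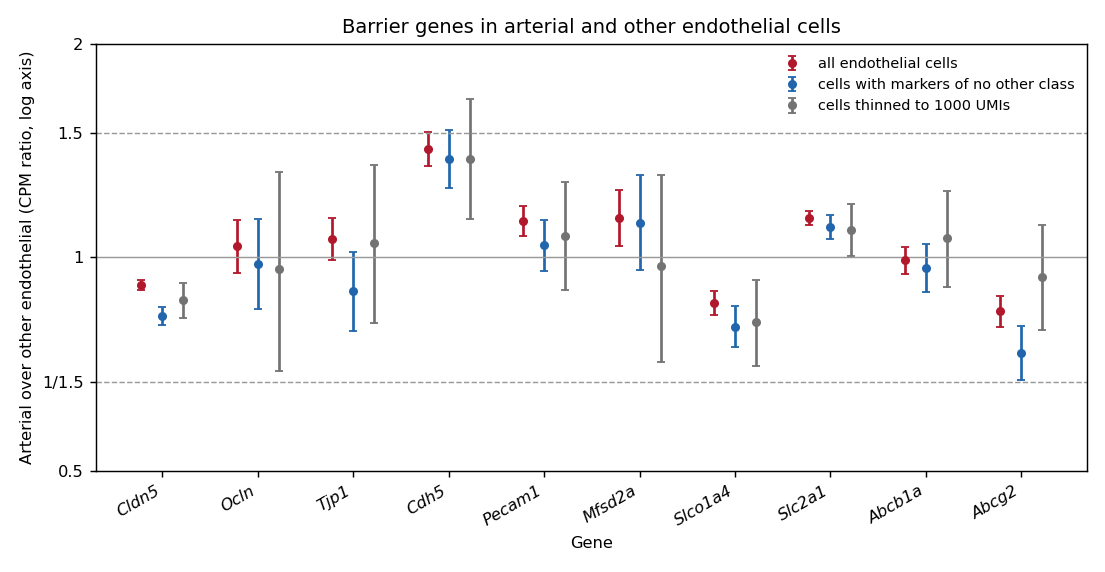
Ratio of CPM in arterial over other endothelial cells (log axis) for the 10 barrier genes, with exact 95% counting intervals, in all endothelial cells, in those with markers of no other class and after thinning to 1000 UMIs. Dashed lines mark 1.5-fold, Cdh5 lies highest (1.42) and no point passes a dashed line.

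Cells were also split by arterial and vein markers (2 or more of either) into 198 artery-only, 394 vein-only and 796 with few of either, the last being the shallowest (median 5296.5 UMIs, against 7709.5 and 10681.5). Between vein-only and few-marker cells Mfsd2a and Slc2a1 differed in direction. Mfsd2a had 200.1 CPM in artery-only, 149 CPM in few-marker and 101 CPM in vein-only cells, and the vein-only level was 0.682 of the few-marker level (0.611 to 0.761). Among cells with no other class's markers the values were 246, 206 and 114 CPM, with a ratio of 0.551 (0.460 to 0.658). Slc2a1 had 2019, 1501 and 2262 CPM, with a vein-only to few-marker ratio of 1.51 (1.47 to 1.55), and 1.33 (1.27 to 1.38) among cells with no other markers. The other 8 genes had ratios of 1.10 to 1.36 in all cells and 0.876 to 1.12 among cells with no other markers.

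Of 22 other junction genes, 16 had at least 10 CPM in endothelial or other cells and 10 of these were 2-fold higher in endothelial cells, beside the background of 18.5%. In arterial against other endothelial cells, 15 had at least 20 CPM, with a median ratio of 1.16. None passed 1.5-fold, beside 6.11% of all genes called higher and 5.19% called lower. The highest were Ctnna1 (1.28), which encodes the alpha-catenin that ties cadherins to actin, the cingulin relative Cgnl1 (1.27), and Afdn and F11r, an afadin and a junctional adhesion molecule (both 1.22). Low ratios were those of Jam3 (0.826) and Cdh2 (0.990). Neither gene was higher in endothelial cells than in all others, with folds of 0.505 and 0.823. Among cells with no other markers they fell to 16.2 and 13.1 CPM in arterial cells. The other endothelial cells were also under the 20 CPM minimum there. The intervals of these ratios, 0.511 to 1.46 for Jam3 and 0.422 to 1.34 for Cdh2, give no direction. The other claudins on the list were near absent from endothelial cells, with Cldn1 at 0.501 CPM, Cldn3 at 0.940 CPM and Cldn12 at 3.82 CPM.

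Of 24 other transporters and receptors, 19 were at least 2-fold higher in endothelial cells, beside 18.5% of all genes tested. In arterial cells, 22 had at least 20 CPM, with a median ratio of 0.866. Of these, 6 were lower by 1.5-fold or more and 2 were higher, beside 5.19% and 6.11% of all genes tested. The lowest was Slc38a5, a glutamine carrier, at 171 against 403 CPM (ratio 0.425, 0.394 to 0.457), and it had 35.7 CPM in artery-only, 145 CPM in few-marker and 653 CPM in vein-only cells. Slc38a3, another amino acid carrier, had a ratio of 0.586 and Tfrc, the transferrin receptor that brings in iron, of 0.594. The other 3 that passed, named after their values were seen, were the lactate carrier Slc16a1 (0.604) and the organic anion carriers Slco2b1 (0.606) and Slc22a8 (0.651). All 6 were also below 1/1.5 among cells with no other markers (0.438 to 0.625). With vein-marker cells left out of both sides, Slc38a5 (0.247), Slc38a3 (0.662) and Slco2b1 (0.584) stayed below 1/1.5. Tfrc (0.677), Slc16a1 (0.730) and Slc22a8 (0.829, 0.715 to 0.957) were then below 1 but did not pass. Slc6a6, the taurine carrier, was higher at 1005 against 579 CPM (1.74, 1.67 to 1.80). So was Lrp1, a lipoprotein receptor that wall cells carry too, at 40.1 against 25.7 CPM (1.56). Among cells with no other markers Lrp1 fell to 2.32 against 2.84 CPM, under the 20 CPM minimum. Its ratio there, 0.817 (0.144 to 3.17), gives no direction. Next came Slc30a1 (1.31), a zinc exporter, and Abcc4 (1.27), an efflux pump.

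Of 9 genes of caveolae and fenestrae, the structures of vesicle and pore transport that barrier endothelium keeps low, 8 had at least 20 CPM. Their median arterial ratio was 1.43, and 3 were higher in arterial cells, beside 6.11% of all genes tested. These were Ehd2 (134 against 69.4 CPM, ratio 1.93, 1.74 to 2.14), a caveola neck protein, Ehd4 (1.55) and Pacsin2 (1.51), and Cavin3 followed (1.44). The lowest, Cav2 (1.22), Cavin2 (1.31) and Cavin1 (1.35), were above 1. Among cells with no other markers Ehd4 had 1.35 and Pacsin2 1.40, and Cav2 (1.06, 0.8996 to 1.24) and Cavin1 (1.08, 0.957 to 1.22) had intervals that included 1. Against all other cells, 6 of the 8 were at least 2-fold higher in endothelial cells, beside 18.5% of all genes tested. Ehd4 (1.10) and Pacsin2 (1.07) were not. Plvap, which forms the diaphragms of fenestrae and marks leaky vessels, had 0.125 CPM in endothelial cells (0.0152 to 0.453), 1 UMI each in arterial and other cells.

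Of 19 Wnt and barrier regulators, 18 had at least 10 CPM. All 18 were at least 2-fold higher in endothelial cells than in all others, beside 18.5% of all genes tested. In arterial cells 1 of 18 was called higher and none lower, beside 6.11% and 5.19% of all genes tested, with a median ratio of 1.15. The transcription factor Sox18 had 257 against 135 CPM (1.90, 1.76 to 2.05), followed by Sox17 (1.45), the Frizzled receptor Fzd6 (1.40) and Tspan12 (1.31), a partner of Fzd4. The lowest were Nkd1 (0.760), an inhibitor that Wnt signals induce, Fzd4 (0.819) and Sox7 (0.859). Among cells with no other markers Sox18 had 1.81, Sox17 1.39, Nkd1 0.747 and Sox7 0.734. Fzd6 had 1.57 (1.21 to 2.01) there, past 1.5-fold. Tspan12 had 1.15 (0.863 to 1.53) and Fzd4 0.917 (0.724 to 1.15), with intervals that included 1.

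**Figure D5:**
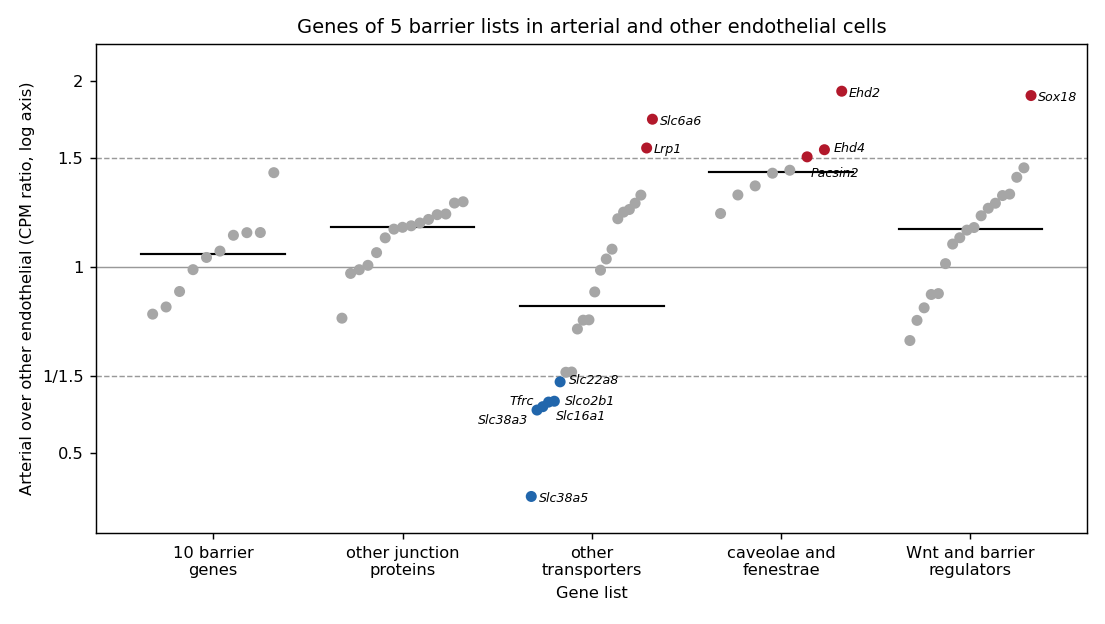
Ratio of CPM in arterial over other endothelial cells (log axis) for each gene with at least 20 CPM of 5 lists, with red and blue dots past 1.5-fold (dashed lines) upwards and downwards and bars at list medians. The transporter list spreads widest, from Slc38a5 (0.425) to Slc6a6 (1.74), and the 10 barrier genes stay within the lines.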

How the data were processed

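The authors made the deposited UMI counts with Cell Ranger 3.1.0 and the STAR aligner from libraries of a 3′ droplet kit, and down-sampled reads to even the depth across the 3 libraries, which hold 69270514 to 105957232 UMIs. The submitters' processing notes name mm10 and also Seurat 3.1.1. The deposited gene and barcode lists (units other than counts) give Ensembl identifiers, symbols and suffixes. The counts were used as deposited. Of the barcodes, 2862 had under 1000 UMIs and 1544 over 30% mitochondrial counts, and some failed both.

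A class needed 3 or more of its 5 markers, and a cell that met several was put in none of the 14 classes compared, apart from the endothelial rule (3358 such cells, and 3237 in no class). UMIs were summed over cells and divided by their total. Shares have exact Clopper-Pearson, CPM exact Poisson and ratios exact conditional 95% intervals (SciPy 1.17.1, NumPy 2.4.6, pandas 2.3.3, Python 3.11.15). Figures used Matplotlib 3.10.9. No test was run, because cells are not replicates and the suffixes are not paired with conditions.

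The members, gene lists and rules were chosen with earlier results of these data known. Named genes are the 10 members, the markers and checks, the 4 highest and 3 lowest arterial ratios of each list, and the 2 genes most alike for each member. A gene that this rule names is not reported here. Members, markers and list genes were found by symbol, each in a single row, although 36 symbols in the matrix are duplicated. Ensembl identifiers were used for gene positions, and 99.6% of them were in GENCODE vM21 (GRCm38). Calls were tested on simulated counts drawn for both sets from the pooled endothelial profile, with known folds put in. These counts had no spread between cells and no difference in wall-cell content. They cannot show how the calls hold in these cells. Alternatives were other limits on cells, markers, depth, folds and minimum levels, and each library left out.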

Additional observations from a re-analysis of the deposited data

How the results depend on the processing

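The count of barrier genes at least 2-fold higher in endothelial cells was 10 under all 13 alternatives run. No background share of all genes is given beside that count for the alternatives. The number of endothelial cells fell from 1542 to 692 when cells with markers of another class were left out and to 965 when those with oligodendrocyte markers were left out. Leaving out each library in turn gave 32 to 1537 cells, the lowest without suffix 3. No barrier gene passed 1.5-fold in arterial cells, except 1 (Cdh5) with 3 or more arterial markers and 1 (Cdh5) with vein-marker cells left out of the comparison set, and 9 without suffix 3, which left 8 arterial and 24 other cells. Of the 4 other lists, 12 genes passed, and 1 did at 2-fold, 3 with 1 arterial marker required, 19 with no minimum CPM and 46 without suffix 3 (12 and 14 without suffix 1 and suffix 2). The share of all genes that passed under these alternatives is not given, and the cause of these shifts was not tested. Across alternatives the Cldn5 fold over other cells ran from 356 without suffix 2 to 8195 without suffix 3, and for the 10 genes that fold stayed above 1. Among the other lists, ratios of single genes were recomputed for cells with no other class's markers and for thinned cells. For the transporters they were also recomputed with vein-marker cells left out of both sides. Lrp1, called higher at 1.56, had 0.817 (0.144 to 3.17) among cells with no other markers and 1.04 (0.407 to 2.37) in thinned cells. Both intervals were too wide to give a direction. With vein-marker cells left out of both sides Lrp1 had 1.23 (0.913 to 1.64), under 1.5-fold and with an interval that included 1. Leaving out cells with pericyte and smooth muscle markers, or with oligodendrocyte markers, was chosen after seeing the data. Pericyte and smooth muscle markers left out gave a Cdh5 arterial ratio of 1.48 and a Cldn5 ratio of 0.955. No paired analysis was possible because each condition has 1 library and the columns carry no condition.

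With 5 and 27 endothelial cells in suffix 1 and suffix 2, levels there have wide counting intervals, and differences between conditions could not be described. More than 1 cell can share a barcode, and the cells with markers of several classes were counted and not resolved. Counting intervals do not cover the spread between mice.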
